A study of Mus musculus with 12 samples.

Results

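The SLC25 family of mitochondrial carriers was followed across 4 sorted populations of mouse fetal liver (FL). Its members were taken as every gene in the count files whose name is Slc25a followed by a number, which gave 47 genes of the 38127 counted. All cells came from C57BL/6 embryos and were sorted as Ter119-CD45- cells, so cells stained for these markers of red cells and of blood cells were gated out of every group. At embryonic day (E) 14.5 the groups were P2 cells (CD54-CD31-Kit+CD24+), CD54+CD31- cells, called CD324+ cells here after the epithelial cadherin they carry, and CD54+CD31+ cells, called CD31+. At E18.5 the group was CD54+CD31- cells. Each group had 3 libraries of bulk RNA, which the study describes as 3 independent litters at E14.5. The source of the E18.5 libraries is not given in the sources used here, so their p-values may measure technical spread. No gene was altered and no agent given in any of them. A gate can hold more than 1 cell type, and in bulk RNA a lower level can come from fewer cells of a type or from less RNA per cell, which cannot be told apart.

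SLC25 carriers are small proteins with a common fold that sit, nearly all, in the inner mitochondrial membrane and move nucleotides, phosphate, organic acids, amino acids, cofactors and metals across it. They are encoded in the nucleus and enter through the TOM complex of the outer membrane. From there they reach their place through the small TIM chaperones of the space between the membranes and the TIM22 complex of the inner membrane. In red cell precursors the family is known for bringing iron and glycine to heme synthesis, and in hepatocytes for the transfers that the urea cycle, citrate export and fatty acid oxidation need.

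The libraries held 40714017 to 64368883 counts, so counting error is small for most members and the number of libraries, 3 per group, limits the precision. Levels are given as CPM, the usual counts-per-million unit, after edgeR's TMM scaling over the 12 libraries. The gates could be followed in the marker genes. The summed level of 15 erythroid markers was 4376 to 4743 CPM in P2 cells against 504 to 939 CPM in the other E14.5 groups, that of 15 hepatoblast markers 74338 to 84087 CPM in CD324+ cells against 810 to 1013 CPM, and that of 12 endothelial markers 10480 to 10849 CPM in CD31+ cells against 45.8 to 518 CPM. Within the P2 group, replicate 2 held 518 CPM of these endothelial markers and the others 100.2 and 160 CPM. The CD31+ libraries also had the highest sum of macrophage markers, 1264 to 1525 CPM against 14.9 to 239 CPM in the other E14.5 libraries, and of megakaryocyte markers, 263 to 466 CPM against 33.6 to 83.8 CPM. Of the 10 macrophage markers, however, only 1 was higher and 6 were lower in CD31+ than in CD324+ cells. Alas2, an erythroid marker, was listed at 0 in every library. The E18.5 libraries stood apart in 2 ways. A list of 10 lung epithelium markers, which summed to 91.2 to 269.7 CPM in the E14.5 libraries, summed to 10677 to 23500 CPM in them, and their replicate 1 had a hepatoblast sum of 7416 CPM against 50683 and 66399 CPM in the other two.

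Of the 47 members, 42 had enough counts to be tested. Slc25a2, an ornithine carrier gene, was listed at 0 in all 12 libraries. Slc25a31, the ADP/ATP carrier gene known from the testis, Slc25a34, Slc25a41 and Slc25a54 never exceeded 11, 8, 9 and 8 counts in a library. No difference was looked for in these 5. The members lie on 19 chromosomes, 4 of them on X, and 14 share exon bases with another annotated gene, 12 of these with genes of the opposite strand only. Whether the counting used the strand is not given in the sources used here, so reads of such pairs cannot be told apart. The overlap is widest in Slc25a35, where 1151 of 3677 exon bases also belong to Rangrf.

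The whole family held a small share of the RNA. Its members summed to 0.208% ± 0.0040 of all counts in P2 (SD, n = 3), 0.1797% ± 0.0141 in CD324+ cells, 0.140% ± 0.0119 in CD31+ cells and 0.127% ± 0.0149 in E18.5 CD54+CD31- cells. After TMM scaling the sums were 2223 ± 56.5, 2129 ± 88.2, 1196 ± 105 and 1177 ± 179.6 CPM (SD, n = 3). Levels of different genes were compared as CPM per kilobase of exon. On that scale the 5 highest members took 61.4% of the family's sum in P2 cells, 56.0% in CD324+ cells, 55.3% in CD31+ cells and 50.0% at E18.5. The ADP/ATP carrier gene Slc25a5 led in P2 cells at 192 ± 2.36 CPM per kilobase (SD, n = 3), far ahead of Slc25a21 (63.8 ± 8.42), Slc25a4 (62.1 ± 2.95), the phosphate carrier gene Slc25a3 (55.7 ± 4.58) and the citrate carrier gene Slc25a1 (40.1 ± 2.02). In CD324+ cells Slc25a4 (104 ± 10.6) came first, as it did in each library, and Slc25a5 (91.3 ± 10.35) second by the mean. They were followed by the glutathione carrier gene Slc25a39 (82.3 ± 3.28), which was above Slc25a5 in replicate 1, Slc25a1 (52.0 ± 2.24) and the aspartate/glutamate carrier gene Slc25a13 (42.9 ± 0.960). In CD31+ cells Slc25a5 (67.9 ± 8.22) and Slc25a4 (64.1 ± 9.92) could not be separated, with Slc25a3 (24.1 ± 4.05), Slc25a39 (19.8 ± 1.56) and Slc25a21 (17.4 ± 3.71) far lower. At E18.5 the order was Slc25a4 (45.7 ± 0.590), Slc25a5 (42.2 ± 3.85), Slc25a13 (33.8 ± 21.3), Slc25a39 (23.5 ± 6.37) and Slc25a3 (20.1 ± 0.988).

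Differences between groups were tested on the counts of all genes by the quasi-likelihood method of edgeR, p-values being adjusted after Benjamini and Hochberg over every gene tested, and a member was called higher or lower at an adjusted p below 0.05. The 3 E14.5 groups shared 1 fit, so the comparisons below share libraries, and their values are set side by side without being counted as independent. Between P2 and CD324+ cells 38 of 42 members were called, against a background of 72.3% of the 15363 genes tested, with 20 higher in P2 cells (40.1% of all genes) and 18 lower (32.2%). Between P2 and CD31+ cells 31 were called (background 74.8%), 23 higher in P2 cells (40.0%) and 8 lower (34.9%). Between CD31+ and CD324+ cells 36 were called (background 65.7%), 14 higher in CD31+ cells (32.2%) and 22 lower (33.5%). The libraries of the groups did not overlap for 40 of 42 members between P2 and CD324+ cells (77.0% of all genes), for 34 between P2 and CD31+ cells (77.6%) and for 35 between CD31+ and CD324+ cells (69.9%). Calls of more than 2-fold numbered 27 (47.7% of all genes), 18 (50.3%) and 23 (39.4%). The median log2 fold change of the members was 0.35, 0.58 and -0.39 in these comparisons, and that of all genes 0.21, 0.08 and -0.02. The balance of the P2 comparisons depended on the scaling. Against CD324+ cells, 55.5% of all calls were in the direction of P2 cells, and with the factor that the authors applied to each library 37.8% were, where the members split into 14 higher and 19 lower. Against CD31+ cells the same shares were 53.4% and 33.7%, with 14 members higher and 15 lower under the authors' factors.

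**Figure D1:**
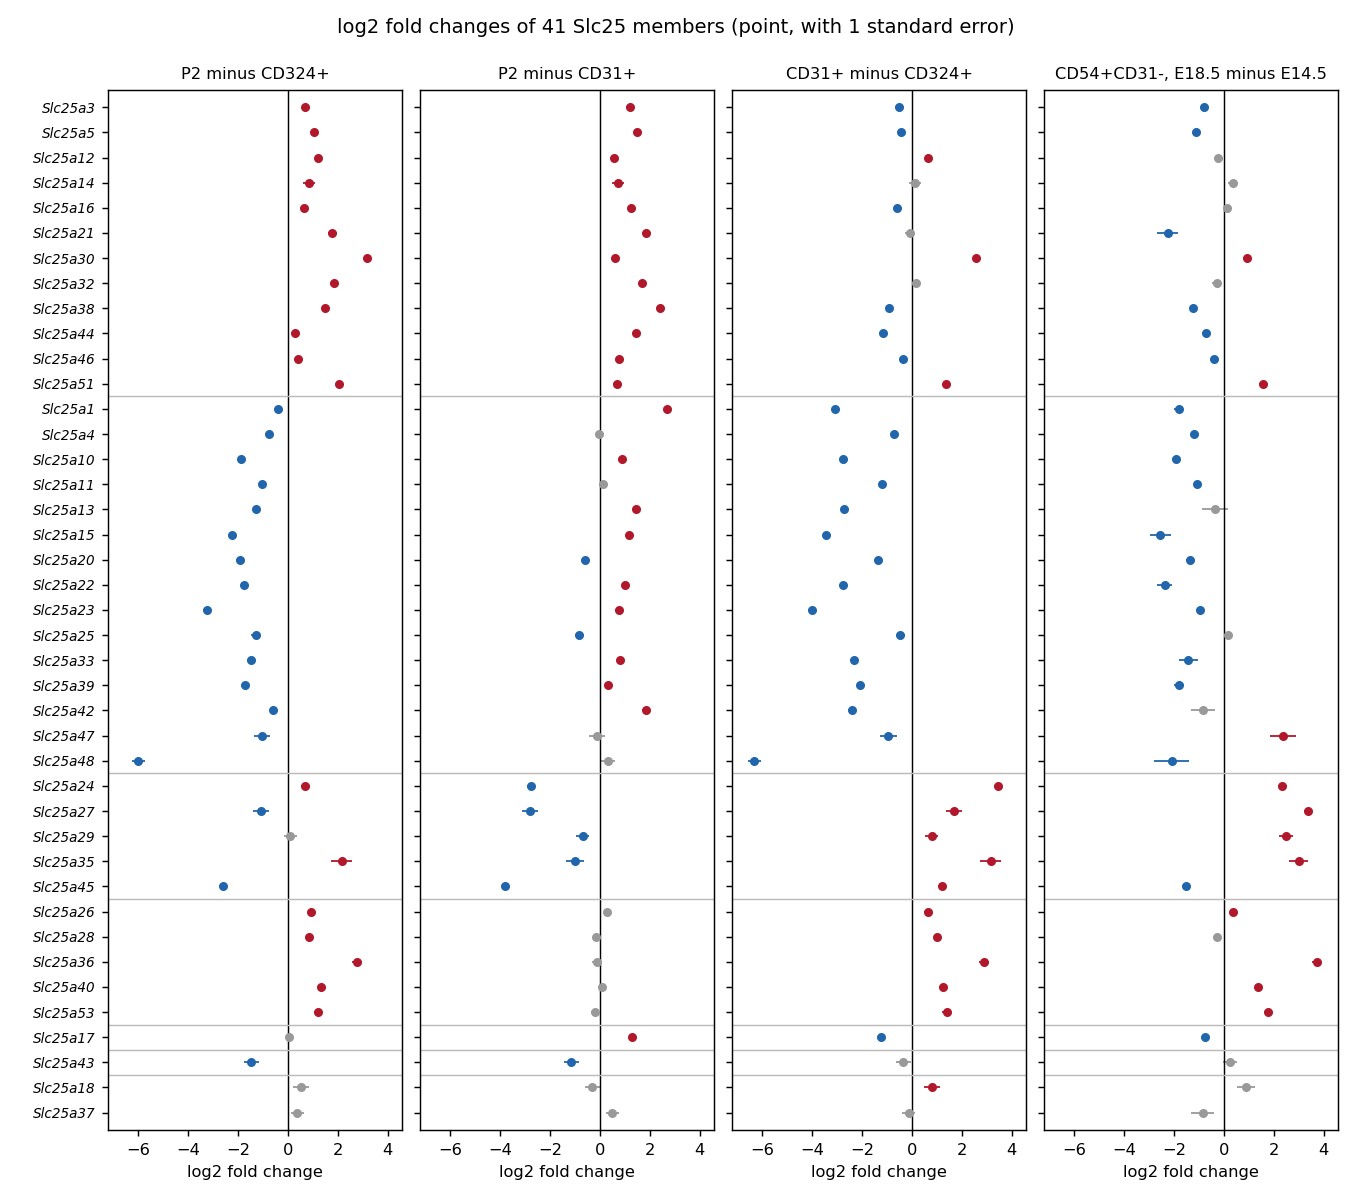
Log2 fold change of 41 of the 42 tested members (points) with 1 standard error (bars) in the 4 comparisons, one panel each, red where the member was called higher in the first-named group, blue where lower and grey where not called. Members are grouped by their E14.5 pattern, and Slc25a48 lies farthest from 0, at -5.99 in the first panel and -6.31 in the third.

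The largest differences between groups without overlap were spread over several kinds of carrier. Against CD324+ cells, P2 cells had the greatest excess in Slc25a30 (9.05-fold), Slc25a36 (6.84), Slc25a35 (4.51), Slc25a51 (4.18) and Slc25a32 (3.65), and the greatest deficit in Slc25a48 (63.6-fold), Slc25a23 (9.43), Slc25a45 (6.11), Slc25a15 (4.76) and Slc25a20 (3.82). Against CD31+ cells, the excess was greatest in Slc25a1 (6.53-fold), Slc25a38 (5.36), Slc25a21 (3.66), Slc25a42 (3.58) and Slc25a32 (3.24), and the deficit in Slc25a45 (14.0-fold), Slc25a27 (6.88), Slc25a24 (6.76), Slc25a43 (2.19) and Slc25a35 (2.00). CD31+ cells lay farthest above CD324+ cells in Slc25a24 (11.05-fold), Slc25a35 (8.99), Slc25a36 (7.44), Slc25a30 (5.91) and Slc25a27 (3.25), and farthest below them in Slc25a48 (79.5-fold), Slc25a23 (16.0), Slc25a15 (10.8), Slc25a1 (8.45) and Slc25a22 (6.84).

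By these calls most members belonged to 1 of 3 E14.5 patterns. The level in P2 cells was above both other groups for 13 members (among them Slc25a3, Slc25a5, Slc25a12, Slc25a14, Slc25a16, Slc25a21, Slc25a30, Slc25a32, Slc25a38, Slc25a44, Slc25a46 and Slc25a51). That in CD324+ cells was above both others for 15 (Slc25a1, Slc25a4, Slc25a10, Slc25a11, Slc25a13, Slc25a15, Slc25a20, Slc25a22, Slc25a23, Slc25a25, Slc25a33, Slc25a39, Slc25a42, Slc25a47 and Slc25a48). CD31+ cells stood above both others for Slc25a24, Slc25a27, Slc25a29, Slc25a35 and Slc25a45. Of the members with no group above both others, CD324+ cells lay below both others for Slc25a26, Slc25a28, Slc25a36, Slc25a40 and Slc25a53. Slc25a17 was lowest in CD31+ cells and Slc25a43 in P2 cells, and Slc25a18 and Slc25a37 had no such order. Members with a highest group could have a lowest group as well. That was CD324+ cells for Slc25a12, Slc25a24, Slc25a30, Slc25a35 and Slc25a51, and P2 cells for Slc25a20, Slc25a25, Slc25a27 and Slc25a45. It was CD31+ cells for Slc25a1, Slc25a3, Slc25a5, Slc25a10, Slc25a13, Slc25a15, Slc25a16, Slc25a22, Slc25a23, Slc25a33, Slc25a38, Slc25a39, Slc25a42, Slc25a44 and Slc25a46. The summed macrophage and megakaryocyte markers were highest in the CD31+ libraries, as were the 5 members named as highest there. All 6 megakaryocyte markers were higher in CD31+ than in CD324+ cells, but of the 10 macrophage markers 1 was higher and 6 were lower. The part of these markers in the differences was not tested. P2 replicate 2, the P2 library with the most endothelial markers, had the highest P2 level of Slc25a24, Slc25a27 and Slc25a45. Without it the deficit of P2 against CD31+ cells was 7.63-fold for Slc25a24, 9.48-fold for Slc25a27 and 15.8-fold for Slc25a45, and Slc25a35 was no longer called (adjusted p = 0.0890). With the authors' factors the pattern was kept by 14 of the 15 CD324+ members (all but Slc25a25), by all 5 CD31+ members and by 5 of the 13 P2 members, among them Slc25a5, Slc25a21, Slc25a32 and Slc25a38. Slc25a26, Slc25a28, Slc25a36, Slc25a40 and Slc25a53 remained lowest in CD324+ cells under those factors. All of them but Slc25a26 then also stood highest in CD31+ cells. With all 12 libraries in 1 fit, 12 of 15 CD324+ members (all but Slc25a1, Slc25a42 and Slc25a47) and 13 of 13 P2 members kept theirs.

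**Figure D2:**
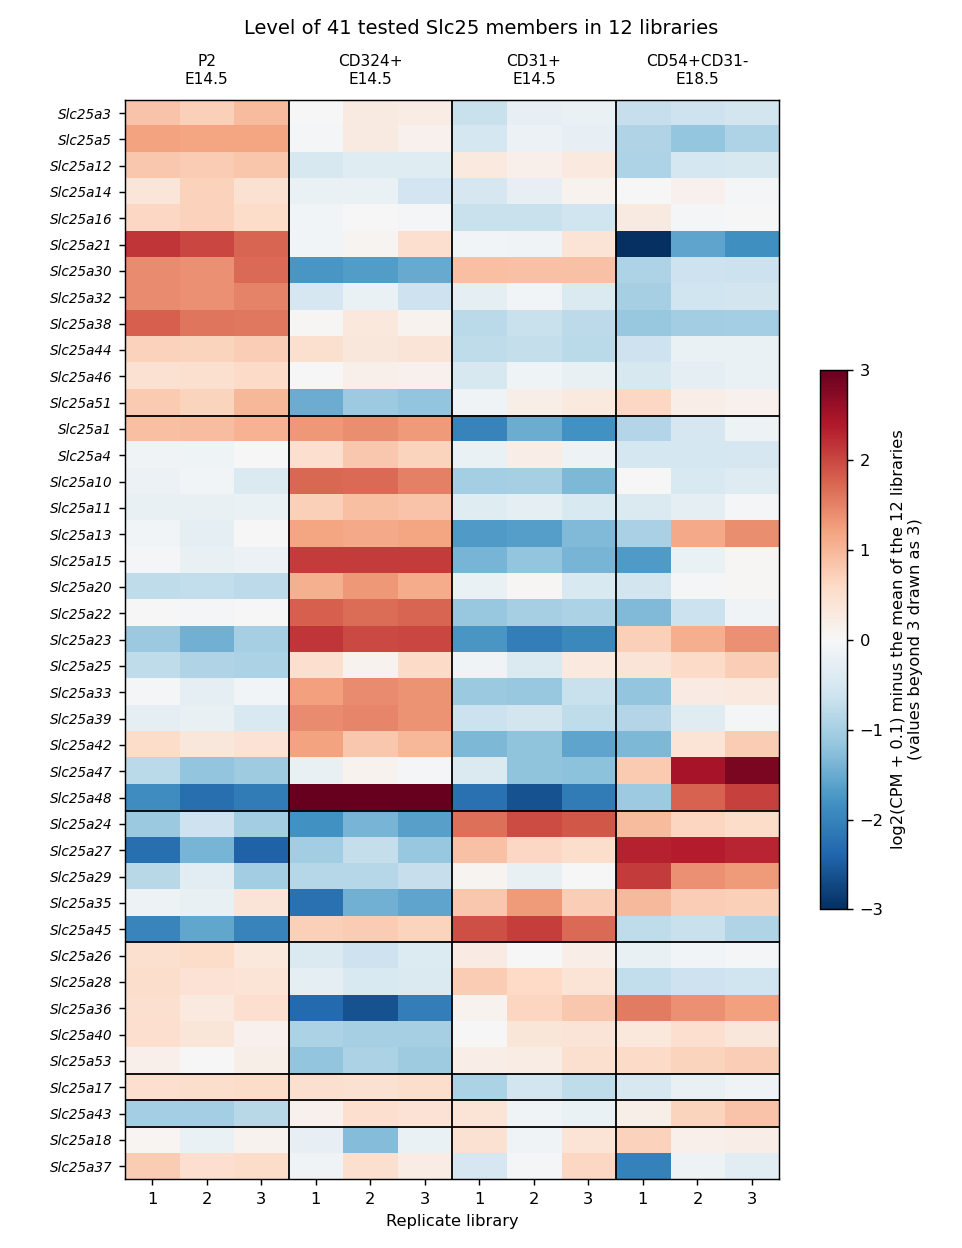
Level of 41 of the 42 tested members (rows) in the 12 libraries (columns), as log2(CPM + 0.1) minus the row's mean, with red above and blue below that mean and values beyond 3 drawn as 3. Rows are ordered by E14.5 pattern, and the upper blocks show members highest in P2 cells (12 rows) and in CD324+ cells (15 rows).

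The patterns were drawn from the calls, so the members of a pattern agree by definition. The 250 bases before the RefSeq start of each gene were read on GRCm38 for letters that blood and liver factors bind. A window was found for 36 of the 47 members and for 27025 genes in all. Those of 4 members are printed, the glycine carrier gene and an iron carrier gene of heme synthesis and the members with the largest excess in P2 and in CD324+ cells. They run 5′ to 3′ on the strand of the gene, with capitals on GATA letters (A or T, then GATA, then A or G) and on CACCC-type letters (CCNCNCCC), on either strand.
Slc25a38, chr9:120110132-120110381, plus strand: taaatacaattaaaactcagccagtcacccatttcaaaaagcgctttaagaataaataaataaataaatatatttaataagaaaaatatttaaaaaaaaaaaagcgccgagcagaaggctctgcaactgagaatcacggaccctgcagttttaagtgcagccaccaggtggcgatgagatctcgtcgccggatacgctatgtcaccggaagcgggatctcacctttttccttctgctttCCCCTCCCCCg
Slc25a28, chr19:43674882-43675131, minus strand: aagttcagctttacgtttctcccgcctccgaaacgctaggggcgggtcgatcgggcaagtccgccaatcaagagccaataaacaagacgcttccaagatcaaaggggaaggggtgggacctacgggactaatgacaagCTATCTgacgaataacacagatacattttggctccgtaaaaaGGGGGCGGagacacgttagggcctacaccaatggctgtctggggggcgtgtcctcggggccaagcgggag
Slc25a30, chr14:75787038-75787287, minus strand: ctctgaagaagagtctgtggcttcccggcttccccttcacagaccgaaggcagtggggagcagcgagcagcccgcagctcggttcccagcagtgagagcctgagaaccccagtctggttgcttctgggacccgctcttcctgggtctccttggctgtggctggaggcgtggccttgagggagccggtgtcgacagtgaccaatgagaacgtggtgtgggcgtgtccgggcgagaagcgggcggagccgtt
Slc25a48, chr13:56438105-56438354, plus strand: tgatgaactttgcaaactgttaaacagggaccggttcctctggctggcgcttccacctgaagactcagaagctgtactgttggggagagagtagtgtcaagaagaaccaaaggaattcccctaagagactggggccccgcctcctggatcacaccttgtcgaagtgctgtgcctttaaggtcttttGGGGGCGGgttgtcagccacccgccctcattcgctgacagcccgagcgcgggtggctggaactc
The glycine carrier gene's window has 2 overlapping CACCC-type matches next to the start, and the Slc25a28 window has 1 match of each kind. The Slc25a48 window has 1 CACCC-type match and the Slc25a30 window none of either. A gene was counted when any of its windows held a match. GATA letters were found for 6 of the 36 members with a window and for 29.7% of all 27025 genes. They were found for 2 of the 8 such members of the P2 pattern (Slc25a5 and Slc25a12) and for 1 of the 15 of the CD324+ pattern (Slc25a4). CACCC-type letters were in 25 of 36 against 48.5% of all, in 5 of 8 and in 12 of 15. NRF1-type letters, 10 bases long and sought because this factor is tied to mitochondrial genes, were in 2 of 36 against 4.23%, and HNF1-type letters, 13 bases long and tied to liver genes, in 0 of 36 against 0.126%. These are matches of letters and say nothing of binding.

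Among the carriers of heme synthesis, the glycine carrier gene separated the groups most clearly. Slc25a38 (ENSMUSG00000032519, chr9:120110374-120124504 on GRCm38, plus strand) encodes the carrier that supplies glycine for the first step of heme synthesis. Its level was 97.7, 85.5 and 83.2 CPM in the P2 libraries, 28.7, 34.8 and 29.9 in CD324+ cells, 16.0, 17.5 and 16.2 in the CD31+ libraries and 12.7, 13.6 and 13.7 at E18.5. All P2 libraries lay above all others, and all CD324+ libraries above all CD31+ and E18.5 libraries. P2 cells exceeded CD324+ cells by a log2 fold change of 1.51, SE 0.10, adjusted p = 3.38e-07, and CD31+ cells by a log2 fold change of 2.42, SE 0.11, adjusted p = 3.67e-08. CD31+ cells were below CD324+ cells by a log2 fold change of -0.91, SE 0.10, adjusted p = 2.21e-05. The summed erythroid markers were likewise highest in the P2 libraries, and their part in these differences was not tested. Per kilobase of exon Slc25a38 was the 6th member in P2 cells at 32.3 CPM and the 16th or 17th in the other groups.

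The iron carriers behaved otherwise. Slc25a37 (ENSMUSG00000034248, chr14:69241848-69285112, minus strand) encodes mitoferrin 1, the importer of iron that developing red cells depend on. It had 105, 87.9 and 91.1 CPM in P2 cells, 57.3, 86.9 and 72.7 in CD324+ cells, 43.5, 59.7 and 96.2 in the CD31+ libraries and 15.1, 56.1 and 49.9 at E18.5. The P2 libraries lay above the CD324+ libraries, the highest of which reached nearly the lowest P2 value, and CD31+ replicate 3 lay among the P2 libraries. The differences were not called between P2 and CD324+ cells (log2 fold change of 0.39, SE 0.25, adjusted p = 0.187), P2 and CD31+ cells (log2 fold change of 0.51, SE 0.25, adjusted p = 0.0889) or CD31+ and CD324+ cells (log2 fold change of -0.12, SE 0.25, adjusted p = 0.689). The first difference was called when only those 6 libraries were fitted (adjusted p = 0.0336). The comparisons with CD31+ cells rested on that library, without which P2 cells were called above CD31+ cells (log2 fold change 0.87, adjusted p = 0.00255) and CD31+ cells below CD324+ cells (-0.49, adjusted p = 0.0491). With the authors' factors the P2 comparisons of Slc25a37 turned to -0.092 and -0.060. The library that was high in Slc25a37 was also the CD31+ library with the highest sum of erythroid markers, 751 CPM against 504 and 678, and the part of these markers in the result was not tested.

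Slc25a28 (ENSMUSG00000040414, chr19:43663801-43674881, minus strand) encodes mitoferrin 2, the more widely expressed importer of iron. The P2 libraries had 21.8, 20.4 and 20.03 CPM, the CD324+ libraries 12.2, 10.99 and 11.05, the CD31+ libraries 25.5, 23.0 and 19.9 and the E18.5 libraries 8.98, 9.71 and 9.94. P2 and CD31+ libraries overlapped and both lay above all CD324+ libraries. P2 cells exceeded CD324+ cells (log2 fold change of 0.86, SE 0.11, adjusted p = 4.95e-05) and CD31+ cells did so as well (log2 fold change of 1.00, SE 0.11, adjusted p = 2.18e-05), and the P2 to CD31+ difference was not called (log2 fold change of -0.13, SE 0.11, adjusted p = 0.299). With each of the 3 other scalings Slc25a28 was called lower in P2 than in CD31+ cells, by -0.28 with DESeq2 size factors (adjusted p = 0.0473), -0.29 with TMM over the fitted libraries (adjusted p = 0.0472) and -0.70 with the authors' factors (adjusted p = 0.000508). In counts per exon base Slc25a37 exceeded Slc25a28 in every library, by a mean log2 ratio of 1.502 in P2 cells, 1.96 in CD324+ cells, 0.79 in CD31+ cells and 1.19 at E18.5. The ratio ranged from 0.09 to 1.59 among the CD31+ libraries.

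**Figure D3:**
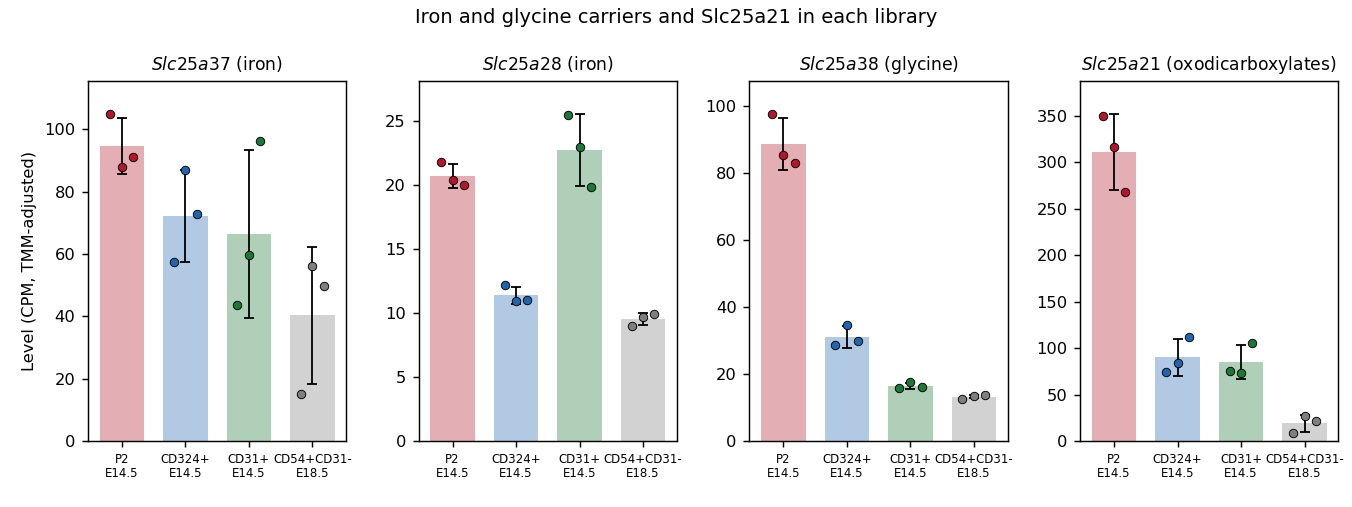
Level (CPM, TMM-adjusted) of Slc25a37, Slc25a28, Slc25a38 and Slc25a21 in the 4 groups, with a point for each library, bars for the means and whiskers of 1 SD (n = 3). Slc25a38 and Slc25a21 are highest in all P2 libraries, whereas Slc25a37 overlaps between P2 and CD31+ cells.

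The enzymes and partners around these carriers were described beside them. Of 11 genes of heme and iron-sulfur cluster synthesis 9 were tested, of which 8 were higher and 1 lower in P2 cells in each comparison, and all 9 were lower in CD31+ than in CD324+ cells. With the authors' factors 7 were higher and 1 lower in P2 than in CD324+ cells. Fech, which inserts iron into heme, had 340.5 ± 26.1 CPM in P2 (SD, n = 3), 155 ± 26.02 in CD324+ cells and 79.0 ± 9.92 in CD31+ cells. Glrx5, a carrier of iron-sulfur clusters, had 182 ± 12.4, 66.2 ± 11.003 and 31.5 ± 6.12 CPM. Alas1, the housekeeping form of the enzyme that uses the imported glycine, was the exception, with 31.2 ± 5.14 CPM in P2 cells against 98.6 ± 4.36 and 74.5 ± 2.60. Alas2, the erythroid form, and Abcb10, a membrane partner of mitoferrin 1, were listed at 0 in all 12 libraries. Whether their reads were counted at all is not given in the sources used here. These 0 values are therefore not read as absence of either transcript from P2 cells.

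The carriers of energy metabolism exchange ADP for ATP and bring in phosphate. Slc25a5, the ADP/ATP carrier of dividing cells, had 319, 315 and 311 CPM in P2 cells, 132, 166 and 152 in CD324+ cells and 96.4, 122 and 117 in CD31+ cells. Every P2 library was above every other library, and P2 cells exceeded CD324+ cells by a log2 fold change of 1.07, SE 0.11, adjusted p = 8.6e-06. Slc25a4, the form of heart and muscle, ran the other way, with 143, 141 and 154 CPM in P2 cells, 219, 269 and 244 in CD324+ cells and 135, 178 and 139.9 in CD31+ cells. The CD324+ libraries were above all others, with a log2 fold change of -0.74, SE 0.12, adjusted p = 0.000233 for P2 minus CD324+ cells, and P2 and CD31+ libraries overlapped. The phosphate carrier gene Slc25a3 had 311, 282 and 333, 170.4, 206 and 199.6 and 108, 144 and 149 CPM in P2, CD324+ and CD31+ cells, the P2 libraries above all others (log2 fold change of 0.69, SE 0.13, adjusted p = 0.000834 against CD324+ cells, not called with the authors' factors).

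The calcium-regulated carriers that exchange ATP-magnesium for phosphate divided by cell type. Slc25a23 had 4.20, 3.35 and 4.58 CPM in P2 cells, 41.0, 36.4 and 37.1 in CD324+ cells and 2.68, 2.11 and 2.33 in CD31+ cells. The CD324+ libraries were far above the rest, with a log2 fold change of -3.24, SE 0.15, adjusted p = 1.66e-08 for P2 minus CD324+ cells and a log2 fold change of -4.00, SE 0.15, adjusted p = 5.2e-09 for CD31+ minus CD324+ cells. Slc25a24 had 7.46, 10.6 and 7.82, 4.54, 6.10 and 5.21 and 51.5, 63.6 and 59.9 CPM, highest in the CD31+ libraries by a log2 fold change of 3.47, SE 0.17, adjusted p = 3.24e-08 over CD324+ cells. Slc25a25 was between these, with 12.8 ± 0.903 CPM in P2 (SD, n = 3), 31.2 ± 5.21 in CD324+ and 22.7 ± 5.81 in CD31+ cells, the last 2 groups overlapping. Within a library, the log2 ratio of Slc25a23 to Slc25a24 per exon base was 1.95 to 2.55 in CD324+ cells, -2.29 to -1.40 in P2 cells and -5.54 to -4.89 in CD31+ cells. Of the 5 tested genes of the calcium uniporter complex, 1 was higher and 3 lower in P2 than in CD324+ cells. The pore gene Mcu was highest in CD31+ cells (135 ± 18.8 CPM, against 37.1 ± 7.14 in P2 and 55.4 ± 3.77 in CD324+ cells).

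Slc25a30, a relative of the uncoupling proteins, showed the largest excess in P2 over CD324+ cells of any member. The P2 libraries had 25.99, 25.3 and 31.7 CPM, the CD324+ libraries 2.85, 2.98 and 3.33 and the CD31+ libraries 18.2, 18.1 and 17.9. No group overlapped another, with the CD324+ libraries lowest (log2 fold change of 3.18, SE 0.13, adjusted p = 6.35e-09 for P2 minus CD324+ cells). Its relative Slc25a27 was low and highest in CD31+ cells at E14.5, with 0.534, 1.06 and 0.462, 1.37, 1.73 and 1.27 and 5.43, 4.54 and 4.25 CPM. Slc25a14 stayed between 1.70 and 4.19 CPM in all E14.5 libraries. Of the carriers that bear other names, Ucp2, an uncoupling protein, had 279 ± 12.2 CPM in P2 cells (SD, n = 3) against 99.96 ± 15.9 in CD324+ and 94.3 ± 9.29 in CD31+ cells, with log2 fold changes of 1.48 and 1.57 for P2 cells, both called. Ucp1, the form of brown fat, was at or near 0 throughout.

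The carriers of citrate, dicarboxylates and oxoglutarate were, with 1 exception, highest in CD324+ cells. Slc25a1, which exports citrate for fatty acid synthesis, had 83.7, 85.0 and 91.8 CPM in P2 cells, 110.3, 118 and 109 in CD324+ cells and 11.2, 16.0 and 12.7 in CD31+ cells. The P2 libraries lay a little below the CD324+ libraries and both far above the CD31+ libraries (log2 fold change of 2.71, SE 0.13, adjusted p = 5.05e-08 for P2 minus CD31+ cells). The dicarboxylate carrier gene Slc25a10 had 32.7, 34.7 and 27.3, 121, 119 and 105 and 18.0, 18.4 and 14.4 CPM, and the oxoglutarate carrier gene Slc25a11 29.0 ± 0.239, 60.2 ± 4.26 and 26.4 ± 1.67 CPM (SD, n = 3). Slc25a21, which carries oxodicarboxylates, was the exception, with 349, 316 and 268 CPM in P2 cells, 74.5, 83.5 and 112 in CD324+ cells and 75.1, 73.6 and 106 in CD31+ cells. All P2 libraries were at least 268 CPM and no other above 112 CPM, a log2 fold change of 1.79, SE 0.19, adjusted p = 8.43e-06 over CD324+ cells. The annotated locus of Slc25a21 spans 484839 bases of chromosome 12 and shares 189 exon bases with Pax9 on the other strand. Of 4 enzymes of citrate making and use, 2 were lower and 1 higher in P2 than in CD324+ cells, and 3 were lower in CD31+ cells. Acly, which splits exported citrate, had 244 ± 16.8, 705 ± 14.9 and 135 ± 8.998 CPM in P2, CD324+ and CD31+ cells.

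The aspartate/glutamate carriers, part of the malate-aspartate shuttle, split between P2 and CD324+ cells. Slc25a13, the liver form, had 68.1, 60.2 and 72.0 CPM in P2 cells, 165, 159 and 165 in CD324+ cells and 22.1, 22.8 and 28.6 in CD31+ cells. The groups did not overlap, and P2 cells lay below CD324+ cells by a log2 fold change of -1.29, SE 0.11, adjusted p = 2.16e-06. Slc25a12, the form of excitable tissues, had 68.5, 66.7 and 69.2, 27.9, 30.2 and 30.4 and 47.7, 43.4 and 48.1 CPM, with the P2 libraries highest and the CD324+ libraries lowest (log2 fold change of 1.21, SE 0.08, adjusted p = 2.99e-07). Of the glutamate carriers, Slc25a22 was highest in CD324+ cells (49.4 ± 2.31 CPM, against 14.5 ± 0.235 in P2 and 7.21 ± 0.481 in CD31+ cells; SD, n = 3), and Slc25a18 stayed under 4 CPM in the E14.5 libraries. Of the 4 shuttle enzymes, 2 were lower and 1 higher in P2 than in CD324+ cells (3 lower and none higher with the authors' factors), and all 4 were lower in CD31+ cells.

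The ornithine carrier gene of the urea cycle marked CD324+ cells. Slc25a15 had 26.3, 23.3 and 24.0 CPM in P2 cells, 117, 116 and 117 in CD324+ cells and 10.2, 11.9 and 10.35 in CD31+ cells. The 3 CD324+ libraries lay within 2 CPM of each other and far above the rest, with a log2 fold change of -2.25, SE 0.09, adjusted p = 7.02e-09 for P2 minus CD324+ cells and a log2 fold change of -3.43, SE 0.10, adjusted p = 6.11e-10 for CD31+ minus CD324+ cells. At E14.5 all 6 of its partners in the cycle were likewise lower in P2 and in CD31+ than in CD324+ cells. Otc, which joins ornithine to carbamoyl phosphate, had 2.32 ± 0.417, 199 ± 8.10 and 3.01 ± 0.758 CPM in P2, CD324+ and CD31+ cells. Slc25a29, a carrier of basic amino acids, was low (1.114 to 2.53 CPM in the E14.5 libraries). The summed hepatoblast markers were highest in the same CD324+ libraries, and their part in these differences was not tested.

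The carnitine, glutathione and choline carriers also peaked in CD324+ cells. Slc25a20, which brings acylcarnitines to fatty acid oxidation, had 11.5, 11.8 and 11.3, 41.6, 48.2 and 42.7 and 17.2, 20.2 and 14.3 CPM in P2, CD324+ and CD31+ cells. Cpt2, which acts next on them, was likewise highest there (124 ± 6.35 CPM, against 48.8 ± 3.36 in P2 cells), though of the 4 carnitine enzymes tested 1 was higher and 1 lower in P2 than in CD324+ cells (none higher and 3 lower with the authors' factors). Of the glutathione carriers, Slc25a39 had 69.8, 73.3 and 62.4, 229, 234 and 217 and 54.9, 58.7 and 50.1 CPM, and P2 cells lay below CD324+ cells by a log2 fold change of -1.73, SE 0.10, adjusted p = 6.32e-08. Its relative Slc25a40 ran the other way at a far lower level, with 10.3, 9.35 and 7.92, 3.72, 3.56 and 3.60 and 7.26, 9.34 and 9.55 CPM (log2 fold change of 1.34, SE 0.16, adjusted p = 2.61e-05 for P2 minus CD324+ cells). The choline carrier gene Slc25a48 separated the groups most widely. It had 18.8, 17.2 and 14.1 CPM in CD324+ cells against 0.316, 0.216 and 0.252 in P2 cells and 0.218, 0.147 and 0.254 in CD31+ cells. CD324+ cells were 63.6-fold above P2 cells (log2 fold change of -5.99, SE 0.25, adjusted p = 7.78e-09) and 79.5-fold above CD31+ cells (log2 fold change of -6.31, SE 0.25, adjusted p = 5.99e-09), both of which held less than 1 CPM. Slc25a45, its close relative, was highest in CD31+ cells, with 1.53, 2.10 and 1.51, 10.5, 10.8 and 10.2 and 24.5, 27.1 and 20.6 CPM in P2, CD324+ and CD31+ cells. The 3 groups of Slc25a45 did not overlap (log2 fold change of -3.81, SE 0.17, adjusted p = 3.7e-08 for P2 minus CD31+ cells).

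Of the 9 carriers of cofactors and nucleotides, 6 were higher and 2 lower in P2 than in CD324+ cells (40.1% and 32.2% of all genes). Against CD31+ cells 7 of 9 were higher in P2 cells (40.0% of all genes). Whether the class differs from all genes was not tested. With the authors' factors 5 were higher and 3 lower, and 5 higher and 1 lower. Slc25a51, the NAD carrier gene, had 87.5, 80.9 and 102 CPM in P2 cells, 18.1, 24.0 and 22.4 in CD324+ cells and 47.7, 57.5 and 62.5 in CD31+ cells, with no overlap among groups (log2 fold change of 2.06, SE 0.15, adjusted p = 3.73e-07 for P2 minus CD324+ cells). Slc25a32, the folate carrier gene, had 38.4, 36.7 and 40.3, 10.04, 12.4 and 9.19 and 11.6, 13.5 and 10.5 CPM. The P2 libraries of Slc25a32 were above all others and the rest overlapped (log2 fold change of 1.87, SE 0.14, adjusted p = 5.43e-07 and log2 fold change of 1.69, SE 0.14, adjusted p = 1.04e-06). P2 cells exceeded CD324+ cells in all 5 enzymes of the mitochondrial folate list, such as Mthfd2 with 146 ± 6.73 against 58.3 ± 6.45 CPM. The pyrimidine nucleotide carriers Slc25a33 and Slc25a36 mirrored each other, with 13.2, 11.4 and 12.9, 32.3, 37.2 and 35.4 and 6.29, 6.22 and 8.57 CPM for Slc25a33. Slc25a36 had 25.99, 22.5 and 26.5, 3.62, 2.95 and 4.35 and 19.8, 29.2 and 32.6 CPM. The CD324+ libraries were thus highest for Slc25a33 and lowest for Slc25a36 (log2 fold change of 2.77, SE 0.21, adjusted p = 5.78e-07 for P2 minus CD324+ cells). Of the coenzyme A carriers, Slc25a42 was highest in CD324+ cells (23.9 ± 3.31 CPM, against 16.1 ± 1.31 in P2 cells) and Slc25a16 in P2 cells (26.3 ± 1.33 against 16.6 ± 0.356; not called with the authors' factors, 0.18, adjusted p = 0.153). Slc25a26, which carries S-adenosylmethionine, ranged from 5.64 to 13.0 CPM in the E14.5 libraries. Slc25a17, a peroxisomal member, did not separate P2 from CD324+ cells (62.5 ± 1.35 and 61.0 ± 1.44 CPM; log2 fold change of 0.03, SE 0.10, adjusted p = 0.77) and was lowest in CD31+ cells (25.8 ± 3.60 CPM).

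The remaining members gave smaller or sparser differences. Slc25a44, a carrier of branched-chain amino acids, had 56.8 ± 1.85 CPM in P2 (SD, n = 3), 46.1 ± 2.17 in CD324+ and 20.5 ± 0.572 in CD31+ cells. Slc25a46, a member of the outer membrane tied to mitochondrial shape, had 84.5 ± 3.65, 63.2 ± 3.78 and 49.4 ± 5.93 CPM. For both, the excess of P2 over CD324+ cells turned negative with the authors' factors (-0.18 and -0.064). Slc25a35, Slc25a43, Slc25a47 and Slc25a53, whose cargo is less settled, were at most 6.55 CPM in the E14.5 libraries. Slc25a43 was lowest in P2 cells, at 0.559, 0.562 and 0.652 CPM against 1.37, 1.82 and 1.72 in CD324+ and 1.68, 1.15 and 1.08 in CD31+ cells. Slc25a35 was still 8.99-fold higher in CD31+ than in CD324+ cells (log2 fold change of 3.17, SE 0.42, adjusted p = 6.48e-05).

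Related carriers were compared within each library by the log2 ratio of their counts per exon base, which needs no scaling between libraries. The ratio of Slc25a4 to Slc25a5 was -1.68 to -1.53 in P2 cells, 0.17 to 0.21 in CD324+ cells and -0.25 to 0.03 in CD31+ cells, so P2 cells alone of the E14.5 groups had far more Slc25a5. The ratio of Slc25a12 to Slc25a13 was -3.52 to -3.34 in CD324+ cells, -1.01 to -0.80 in P2 cells and -0.20 to 0.16 in CD31+ cells. Slc25a33 exceeded Slc25a36 by 5.37 to 6.00 in CD324+ cells and by 1.31 to 1.36 in P2 cells. Slc25a39 exceeded Slc25a40 in every library, by 7.52 to 7.65 in CD324+ cells and by 3.996 to 4.58 in P2 and CD31+ cells. Slc25a16 exceeded Slc25a42 by 0.91 to 1.22 in P2 cells and by 1.41 to 1.87 in CD31+ cells, against -0.42 to 0.04 in CD324+ cells. The ratio of Slc25a14 to Slc25a30 was -0.02 to 0.59 in CD324+ cells and -2.41 to -1.64 in the other E14.5 libraries. That of Slc25a45 to Slc25a48 ran from -0.55 to -0.18 in CD324+ cells to 6.63 to 7.81 in CD31+ cells. These ratios are descriptions of 3 libraries per group and were not tested.

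**Figure D4:**
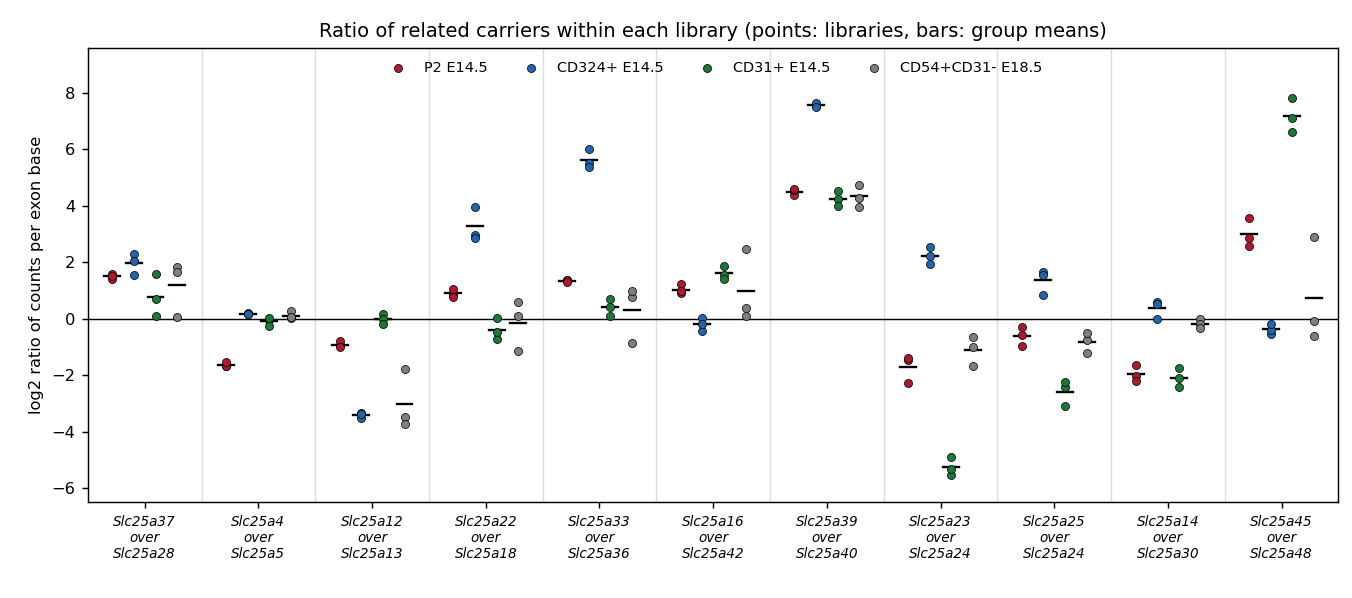
Log2 ratio of counts per exon base between 2 related members within a library, for 11 pairs, with a point for each library and a bar for each group mean. The E14.5 CD324+ libraries (blue) stand apart from P2 (red) and CD31+ (green) for Slc25a33 over Slc25a36 and Slc25a39 over Slc25a40, and the P2 libraries for Slc25a4 over Slc25a5.

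Of the 47 members, 8 lie as 4 pairs within 20000 bases of each other. Slc25a29 and Slc25a47 lie head to head on chromosome 12 with 162 bases between them, Slc25a41 and Slc25a23 are 2056 bases apart on chromosome 17, Slc25a54 and Slc25a24 are 6461 bases apart on chromosome 3, and Slc25a43 and Slc25a5 are 18448 bases apart on X. In each of the last 3 pairs, 1 gene was at or near 0 or below 3 CPM in every library while its neighbour was among the members with clear differences. Slc25a29 and Slc25a47 were both low at E14.5 and both higher at E18.5.

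The import route of the carriers was measured beside them. Of 10 tested genes of the TOM complex, the small TIM proteins and Timm22, 7 were higher and none lower in P2 than in CD324+ cells (6 and 1 with the authors' factors), 9 were higher than in CD31+ cells, and 7 were lower in CD31+ than in CD324+ cells. Tomm70a, the receptor that receives carrier precursors, had 284 ± 11.7 CPM in P2 (SD, n = 3), 155 ± 7.04 in CD324+ and 94.6 ± 9.56 in CD31+ cells. Timm10, a chaperone of carriers, had 23.3 ± 2.17, 8.31 ± 1.32 and 6.76 ± 0.852 CPM. Of 6 genes of outer membrane channels and mitochondrial content, P2 cells were above CD324+ cells in 2, with 3 lower in P2 cells only under the authors' factors, and above CD31+ cells in all 6 (5 under those factors). Of 7 other inner membrane carriers, the pyruvate carriers and sideroflexins, 3 were higher and 3 lower in P2 than in CD324+ cells. Mpc2, a subunit of the pyruvate carrier, had 150.1 ± 20.4 CPM in CD324+ cells against 25.1 ± 4.19 in P2 cells, and the serine carrier gene Sfxn1 215 ± 27.2 CPM in P2 cells against 92.8 ± 5.49.

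The CD54+CD31- gate was then compared between E18.5 and E14.5. Of the 42 members 30 were called (background 69.0% of 15904 genes), 11 higher at E18.5 (37.4% of all genes) and 19 lower (31.6%), and 23 calls exceeded 2-fold (45.2%). The libraries did not overlap for 36 members (76.5% of all genes). The median log2 fold change was -0.37 against 0.09 for all genes. These E14.5 libraries are the CD324+ libraries of the comparisons above. The E18.5 libraries differed from them in make-up, with lung epithelium markers at 10677 to 23500 CPM against 142 to 158 and mesenchymal markers at 4533 to 4912 CPM against 124 to 237. Nkx2-1, which defines the lung lineage, was at 0 in the E14.5 CD324+ libraries and at 253 to 409 CPM at E18.5. Erythroid markers summed to 175 to 391 CPM at E18.5 against 590 to 939, and of 14 tested 10 were lower and none higher. The part of these markers in the differences was not tested.

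Among the 19 members lower at E18.5 were carriers of amino acids, choline and organic acids. Slc25a15 went from 117, 116 and 117 CPM to 8.34, 23.7 and 28.0 (log2 fold change of -2.55, SE 0.42, adjusted p = 0.00169), and Slc25a22 from 49.4 ± 2.31 to 9.598 ± 3.88 CPM (SD, n = 3). Slc25a48 had 0.604, 5.04 and 6.14 CPM at E18.5, all below the E14.5 libraries (log2 fold change of -2.08, SE 0.71, adjusted p = 0.0353). Slc25a21 had 8.46, 26.5 and 22.1 CPM (log2 fold change of -2.24, SE 0.42, adjusted p = 0.00294), and Slc25a39, Slc25a1, Slc25a10, Slc25a20, Slc25a11, Slc25a4, Slc25a5 and Slc25a38 were each lower by a log2 fold change between -1.91 and -1.07. Of the heme carriers, Slc25a38 was lower at E18.5 (log2 fold change of -1.22, SE 0.11, adjusted p = 0.000114). Slc25a28 (log2 fold change of -0.26, SE 0.11, adjusted p = 0.0797) and Slc25a37 (log2 fold change of -0.84, SE 0.46, adjusted p = 0.144) were not called, although all 3 E18.5 libraries of each lay below all E14.5 libraries, and Slc25a37 was called lower with the replicate number as a block (-1.02, adjusted p = 0.0446). Whether these carriers changed by different amounts was not tested. All 9 tested heme and iron-sulfur partners and 9 import genes were lower at E18.5. Other lists were mixed. Of 4 carnitine enzymes 3 were higher and 1 lower, while Slc25a20 was lower. Of 6 urea cycle genes 1 was higher, 3 were lower and 2 were not called. Their summed level was 196, 1195 and 1633 CPM in the E18.5 libraries against 656.5 to 699 at E14.5. Of 7 other inner membrane carriers 4 were higher and 3 lower.

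Among the 11 members higher at E18.5 were carriers of nucleotides and NAD and relatives of the uncoupling proteins. Slc25a36 went from 3.62, 2.95 and 4.35 CPM to 54.5, 48.0 and 43.4 (log2 fold change of 3.74, SE 0.18, adjusted p = 1.66e-05), and Slc25a27 from 1.37, 1.73 and 1.27 to 14.9, 15.4 and 14.6 (log2 fold change of 3.36, SE 0.16, adjusted p = 1.7e-05). Slc25a24 had 31.5, 25.4 and 24.1 CPM against 4.54, 6.10 and 5.21, and Slc25a51 78.3, 58.3 and 56.1 against 18.1, 24.0 and 22.4. Slc25a35, Slc25a29 and Slc25a47 were higher by 3.01, 2.51 and 2.36 on the log2 scale, from levels under 3 CPM at E14.5.

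Replicate 1 of the E18.5 group, the library with the lowest sum of hepatoblast markers, set several of these values. It also had the highest sum of lung epithelium markers, 23500 CPM against 10677 and 10968. Its sum of erythroid markers was the lowest, 175 CPM against 391 and 331. The part of these markers in its levels was not tested. Replicate 1 was the lowest of the 3 in 29 of the 42 members (69.0%), against 43.1% of 15537 genes. Its Slc25a13 level was 36.9 CPM where the others had 159 and 190.2. Without it Slc25a13 went from a log2 fold change of -0.34 to 0.10 (adjusted p = 0.588 and 0.384), so E18.5 and E14.5 then nearly coincided. Slc25a15 went from -2.55 to -2.18, Slc25a22 from -2.36 to -2.11, Slc25a33 from -1.42 to -1.07 and Slc25a48 from -2.08 to -1.58, all still called. Slc25a37 (-0.45, adjusted p = 0.0294) and Slc25a42 (-0.42, adjusted p = 0.0329) were called lower without it, and leaving it out brought the calls to 33, with 11 higher and 22 lower. Slc25a38 (-1.19), Slc25a36 (3.64) and Slc25a27 (3.37) hardly moved. The widest gaps were in Slc25a48 and Slc25a13, where this library held 0.108 and 0.211 of the mean of the other two.

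**Figure D5:**
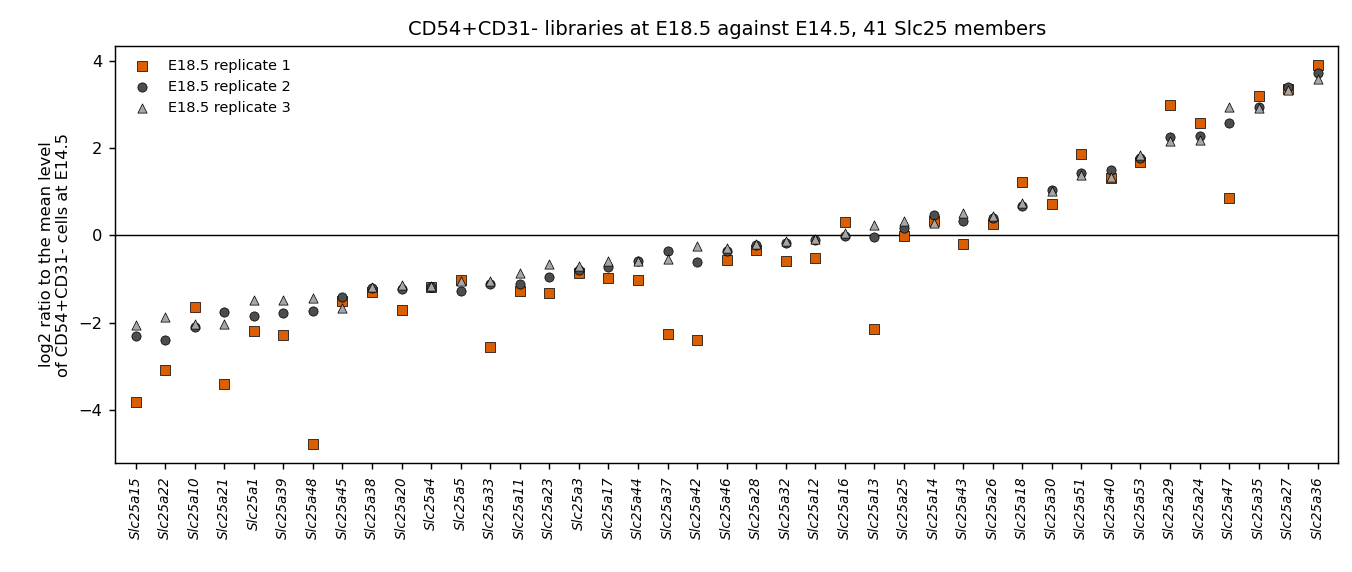
Log2 ratio of each E18.5 CD54+CD31- library to the mean of the 3 E14.5 CD54+CD31- libraries for 41 members, ordered by the mean of replicates 2 and 3, with replicate 1 drawn as orange squares. Replicate 1 lies well below the other libraries for Slc25a13, Slc25a15, Slc25a37, Slc25a42, Slc25a47 and Slc25a48, and close to them for Slc25a38, Slc25a36 and Slc25a27.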

How the data were processed

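Bulk RNA of 12 libraries, 3 for each of 4 sorted FL populations, was analysed, with groups and replicate numbers taken from the sample titles. The authors removed ribosomal sequence, trimmed reads with cutadapt 1.11, aligned them to GRCm38 with STAR 2.5.0a and deposited 1 count per gene and library made with featureCounts 1.4.6-p3. Strand setting and treatment of multi-mapping reads are not given in the sources used here. The authors' second column, a score made from the count times 1 factor per library by DESeq2 in R 3.5.1 and rounded, gave the factors for an alternative scaling only.

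Counts were scaled with TMM over all 12 libraries and tested with edgeR 4.0.16 in R 4.3.3 (filterByExpr, quasi-likelihood F test), with 1 fit for the 9 E14.5 libraries and 1 for the 6 CD54+CD31- libraries. Adjusted p-values are Benjamini-Hochberg over all genes of a comparison, the threshold was 0.05, and the SE of a log2 fold change was taken from its F value. Exon lengths and positions are those of GENCODE vM21, and promoter letters those of RefSeq on GRCm38.p6. Tested on simulated counts for P2 against CD324+ cells (13842 genes), the edgeR test called 83 of 98 genes changed 2-fold, 102 of 102 changed 4-fold and 5 of 13642 unchanged. The simulated counts had few changed genes, in both directions, the same spread for every gene, and TMM over the fitted libraries only. In the data 72.3% of genes were called between these groups, so the simulation does not give the error rate of the comparisons here.

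The members, the carrier classes and the gene lists were chosen with earlier results of these data known. The text names the 3 iron and glycine carriers, every other member under its class, the 5 largest differences in each direction among called members without overlap, the 5 highest members per kilobase in each group, related pairs, and members not tested. Of the members, 1 is counted but its own values are not reported here. Same-numbered CD324+ and CD31+ libraries of E14.5 deviated together (r = 0.36, 0.28 and 0.15 over genes), so their numbers may mark pairs. The main fit did not use this pairing, and the SE and adjusted p-values given for these groups are unpaired. A replicate block, run as an alternative, changed no call among the members between these groups. No library pair of a group was alike within counting error (chi-square over its degrees of freedom 38.6 or more). Alternatives were 3 other scalings, DESeq2 1.42.0, other count filters, other sets of libraries in the fit, a replicate block and leaving out each library.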

Additional observations from a re-analysis of the deposited data

How the results depend on the processing

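No called difference was called in the opposite direction under any alternative, and of the called members 29 of 38 (P2 against CD324+), 20 of 31 (P2 against CD31+), 32 of 36 (CD31+ against CD324+) and 27 of 30 (E18.5 against E14.5) were called in every one of them. The scaling mattered most. The authors' factors moved the median of all genes by -0.50 (P2 against CD324+) and -0.59 (P2 against CD31+) on the log2 scale. With them P2 against CD31+ cells gave 14 higher and 15 lower members in place of 23 and 8, with Slc25a10, Slc25a12, Slc25a14, Slc25a23, Slc25a30, Slc25a33, Slc25a39, Slc25a46 and Slc25a51 no longer called. For P2 against CD324+ cells Slc25a3, Slc25a14, Slc25a16, Slc25a24, Slc25a44 and Slc25a46 were no longer called with them. The cause was not tested. Uncalled or weak differences also changed sign. For P2 against CD324+ cells the authors' factors gave -0.45 for Slc25a17, -0.36 for Slc25a29, -0.092 for Slc25a37, -0.18 for Slc25a44 and -0.064 for Slc25a46, and TMM over the fitted libraries -0.19 for Slc25a17 and -0.11 for Slc25a29, with -0.074 for Slc25a17 under DESeq2 size factors. For P2 against CD31+ cells the authors' factors gave -0.43 for Slc25a11, -0.018 for Slc25a12, -0.26 for Slc25a26, -0.060 for Slc25a37, -0.24 for Slc25a39, -0.49 for Slc25a40 and -0.25 for Slc25a48, and the other 2 scalings -0.012 and -0.019 for Slc25a11 and -0.070 and -0.076 for Slc25a40. For CD31+ against CD324+ cells they gave 0.0028 for Slc25a21.

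Leaving out 1 library at a time gave 37 to 38, 29 to 31, 33 to 36 and 28 to 33 called members in the 4 comparisons. A call was lost without some library for Slc25a1 and Slc25a47 (P2 against CD324+), Slc25a14, Slc25a29 and Slc25a35 (P2 against CD31+), Slc25a18, Slc25a25, Slc25a29 and Slc25a47 (CD31+ against CD324+) and Slc25a26 and Slc25a48 (ages). The sign depended on 1 library for Slc25a29 (-0.15 to 0.26, P2 against CD324+), for Slc25a4 (-0.12 to 0.087), Slc25a36 (-0.30 to 0.029), Slc25a40 (-0.040 to 0.17) and Slc25a47 (-0.26 to 0.23) in P2 against CD31+ cells, for Slc25a14 (-0.053 to 0.28), Slc25a21 (-0.28 to 0.10) and Slc25a37 (-0.49 to 0.11) in CD31+ against CD324+ cells, and for Slc25a13 (-0.74 to 0.10) between ages. None of these differences was called with all libraries.

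With the replicate number as a block the called members were 38, 30, 36 and 30. Between ages Slc25a18 (0.96) and Slc25a37 (-1.02, adjusted p = 0.0446) gained a call and Slc25a26 and Slc25a48 (adjusted p = 0.0563) lost it, and between P2 and CD31+ cells Slc25a29 lost it. Apart from the CD324+ and CD31+ libraries of E14.5, no pair of groups had all 3 same-numbered correlations over 0.1 (r from -0.14 to 0.35 over genes, the highest between replicates 3 of CD31+ and P2 cells). Members under about 1 CPM, such as Slc25a35 and Slc25a48 in their lowest groups, are those where depth limits the fold change.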
